A study of Mus musculus with 12 samples.

Results

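CD11b+CD34- cells sorted from the mammary glands of mice kept on a high-fat diet were set against the same cells from mice kept on a low-fat diet. All panel genes with a linear normalised value of at least 20 in at least 3 of the 12 samples of the series were described, which gave 594 of 760 genes over 6 samples, 3 per diet. At the edge of that filter the third-highest value among the 12 samples was 20.1 for Mmp7, 20.6 for Dusp8 and 20.6 for Tgfb1i1, just inside, and 19.3 for Cxcr1, 19.3 for Amotl1 and 19.2 for Casp12, just outside. The mice were female and of the FVB/N strain, with no allele or transgene named, and ate the diets for 16 weeks from 3 weeks of age. The low-fat group received 2920X from Teklad Global and the high-fat group received 58Y1 from Test Diet. Glands of both groups were digested with collagenase and trypsin, the Fc receptors of the cells were blocked, and live CD45+ cells were sorted by CD11b and CD34 into Trizol. The submitters call the CD34- sort monocytes/macrophages and the CD34+ sort, taken from glands on the same diets, myeloid progenitor cells. RNA was amplified with a low-input kit and read with the nCounter Fibrosis V2 panel, in which a colour-coded probe counts the copies of each target.

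CD45 marks blood-derived cells, and CD11b is an integrin chain carried by monocytes, macrophages, neutrophils, many natural killer cells and some dendritic cells. In fat-rich tissue of obese animals, macrophages are known to gather around dying fat cells, to take up their lipid, and to release cytokines and matrix components. Fibrosis is the build-up of collagens, fibronectin and the enzymes that shape them, and transforming growth factor beta is a well known inducer. The gene panel covers these processes together with cell type markers, so each gene group below is the measured portion of a longer list.

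Recovered total counts ran from 78316 to 535463 over the 6 CD34- samples, and low-fat replicate 3 was the shallowest. It also stood apart in other ways: 55 genes lay at 1 count there, the lowest count in the table, against 7 to 22 in the other 5 samples. The median log2 value of the tested genes was 6.94, 6.77 and 7.37 in the low-fat samples and 7.26, 7.44 and 7.33 in the high-fat samples. Ptprc, which encodes CD45, measured 11.48, 11.23 and 11.52 in the low-fat samples and 11.83, 12.02 and 11.79 in the high-fat samples, a difference of 0.47 ± 0.19 (SE, adjusted p = 0.156). Cd34 measured 4.41, 4.30 and 2.85 in the low-fat samples and 5.40, 5.14 and 5.27 in the high-fat samples, although both groups were sorted as CD34-, and differed by 1.42 ± 0.49 (SE, adjusted p = 0.104). All 3 high-fat values of Cd34 lay above the low-fat ones, and low-fat replicate 3 rested on 2 counts. The CD34+ samples measured 5.84, 4.96 and 5.78 on the low-fat and 5.29, 6.44 and 5.11 on the high-fat diet, a range that the high-fat CD34- samples entered. Cd34 was 1 of 2 tested progenitor markers, whose median was 1.00 with 0 calls, and 0.46 to 0.68 after other scalings of the samples. Itgam, which encodes CD11b, was not analysed here.

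Markers of monocytes and macrophages were measured together with those of lymphocytes. Of 21 macrophage and monocyte markers 7 were measured and 6 tested, and the summed linear value of the 7 was 3193 to 3994 in the low-fat and 5688 to 8296 in the high-fat samples. The 23 measured markers of T and NK cells, 22 of them tested, summed to 5721 to 24330 on the low-fat diet, where low-fat replicate 3 was the highest, and to 6725 to 12513 on the high-fat diet. Cd3e, a chain of the T cell receptor complex, reached 10.93 in low-fat replicate 3 and Gzma, a granzyme of killer cells, 12.62, the highest values of both genes among the 6 samples. The marker genes Adgre1, Mrc1 and Lyz2 were not analysed here, so the label of the sort was checked on Cd14, Csf1r, Cd163, Cd68, Ccr2 and Cd84 only. The cells were measured in bulk, so fewer cells of a type and less RNA per cell cannot be told apart in any result below.

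**Figure D1:**
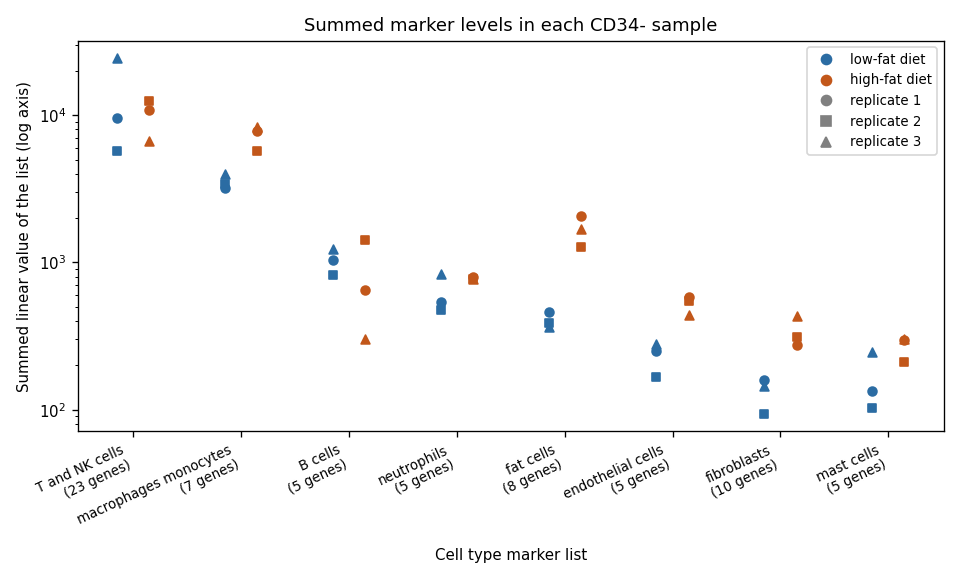
Summed linear normalised value of each cell type's measured markers (log axis) in each of the 6 CD34- samples, blue for the low-fat and orange for the high-fat diet, with marker shape giving the replicate. The macrophage, fibroblast, endothelial and fat cell sums of the 3 high-fat samples all lie above those of the 3 low-fat samples, and the T and NK cell sum is highest in low-fat replicate 3, at 24330. Fabp4 and Cd36 make up most of the fat cell sum.

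On the high-fat diet 30 genes rose and 0 fell, 5.05% of the 594 tested (limma with Benjamini-Hochberg adjustment, adjusted p under 0.05). The genes that rose encode chemokines and cytokines (Cxcl1, Cxcl2, Il6, Il10), lipid handling proteins (Fabp4, Lpl, Pparg, Apoc2), matrix proteins and a protease inhibitor (Col4a2, Col3a1, Fn1, Timp1). Others encode macrophage surface proteins (Csf1r, Cd14, Cd163), the IgG receptor Fcgr4, the neutrophil and monocyte receptor Fpr1 and the stress enzyme Hmox1. The log2 differences of the 30 ran from 0.86 for Tln1 to 3.00 for Timp1, with a median of 1.82, against a median of 0.35 over all tested genes. For 6 of the 30 (Cd163, Col3a1, Col4a2, Igf1, Lpl and Timp1), as for 37 of all tested genes, every low-fat value lay under the filter's 20, so they entered through other samples. In each of the 30 all 3 high-fat samples lay above all 3 low-fat samples, as in 28.3% of all tested genes, and 4 genes (0.673%) lay the other way. The 30 were picked by p on these samples, so their lack of overlap, here and gene by gene below, adds no support. At an unadjusted p under 0.05, 128 genes (21.5%) were higher and 2 (0.337%) were lower: Eef2k by -1.67 ± 0.68 and Klrd1 by -0.70 ± 0.31 (SE). Of the tested genes 463 (77.9%) had a difference above 0, so most of the panel lay above 0. The shares of 5.05% called and 77.9% above 0 are the background for each list count below.

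The size of that shift depended on the scaling of the samples. Centring every sample again on its own median moved the median difference of all genes from 0.35 to 0.03, quantile normalization moved it to -0.08 and voom on the recovered counts to 0.12. After centring again 17 genes were higher, with quantile normalization 12, and with voom 11, all of them among the 30, and each of the 30 differences stayed above 0 under all 3. The genes called under all of these scalings were Col4a2, Cxcl1, Fabp4, Hmox1, Il6, Fpr1, Pparg, Apoc2, Fcgr4, Lrp1 and Csf1r, and those that lost their call after centring again were Timp1, Il10, Cd14, Pik3r5, Flt1, C3, Itga5, Cd163, Epas1, Rapgef2, Cybb, App and Tln1. These 3 settings are called the other scalings below. Single samples also decided the count, which was 12 without low-fat replicate 1, 4 without low-fat replicate 2, 6 without high-fat replicate 1 and 5 without high-fat replicate 3. It was 31 without low-fat replicate 3, of which 20 were among the 30, and 26 without high-fat replicate 2. In every one of these fits all 30 differences were above 0.

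**Figure D2:**
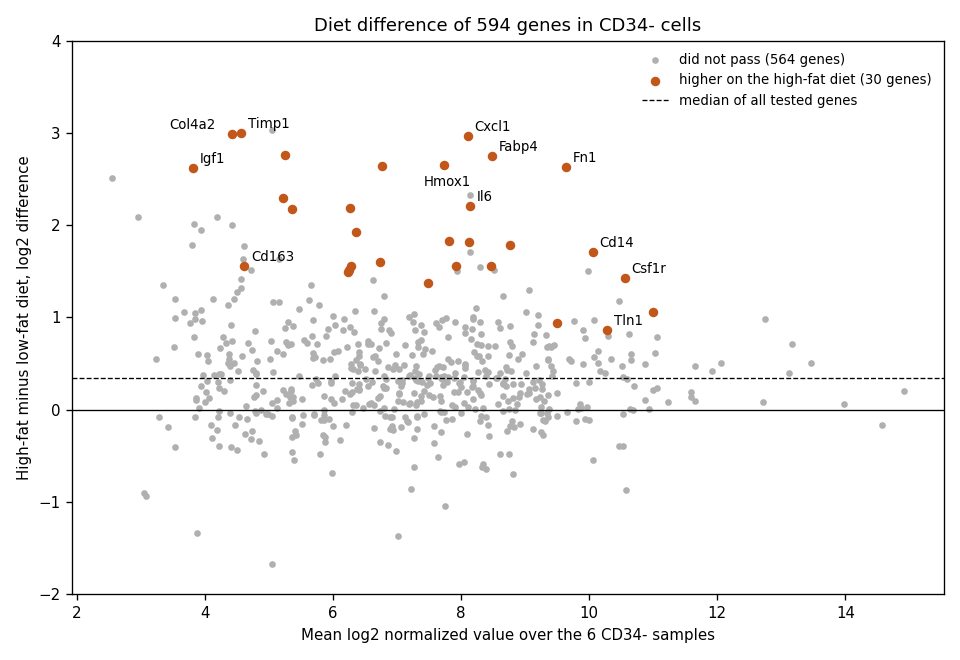
High-fat minus low-fat log2 difference against the mean log2 normalised value over the 6 CD34- samples, 1 point per tested gene, with the 30 genes that passed in orange. All 30 lie between 0.86 and 3.00, and the dashed line marks the median of all 594 genes at 0.35.

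**Figure D3:**
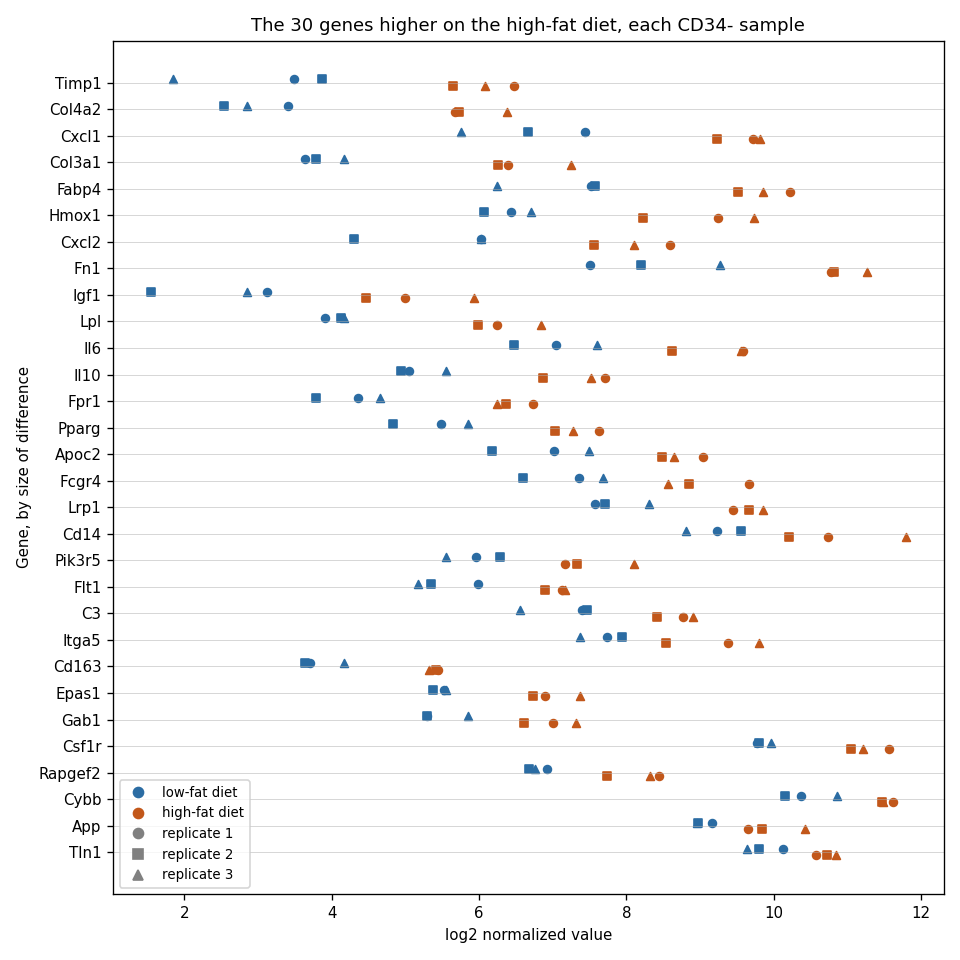
Log2 normalised value of each of the 30 genes that rose, in each CD34- sample, blue for the low-fat and orange for the high-fat diet, with marker shape giving the replicate. In every row the 3 high-fat samples lie to the right of the 3 low-fat samples, and the genes were chosen on the difference between these samples.

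Neutrophil-attracting chemokines and cytokines were among the genes with the greatest differences.
Cxcl1, a ligand of the chemokine receptor CXCR2, measured 7.44, 6.66 and 5.76 in the low-fat samples and 9.72, 9.23 and 9.82 in the high-fat samples, a 7.83-fold rise and a log2 difference of 2.97 ± 0.49 (SE, adjusted p = 0.0049). Cxcl2, a close relative of Cxcl1 with the same receptor, measured 6.03, 4.30 and 6.02 in the low-fat samples and 8.59, 7.56 and 8.11 in the high-fat samples and rose by 2.64 ± 0.56 (SE, adjusted p = 0.0173). The lowest high-fat sample of each lay above every low-fat sample, by more than 1 log2 unit. Il6, a cytokine that signals through gp130 and STAT3, measured 7.05, 6.47 and 7.60 in the low-fat samples and 9.58, 8.62 and 9.55 in the high-fat samples and rose by 2.21 ± 0.42 (SE, adjusted p = 0.0119). Il10, a cytokine that restrains macrophage activation, measured 5.05, 4.94 and 5.55 in the low-fat samples and 7.71, 6.86 and 7.51 in the high-fat samples and rose by 2.18 ± 0.49 (SE, adjusted p = 0.0198). Low-fat replicate 3 was the lowest sample for Cxcl1 and the highest low-fat sample for both Il6 and Il10, and the diets overlapped for neither cytokine.
The promoters of Cxcl1, Cxcl2 and Il6 are shown because all 3 hold the letters GGGA, any base, then TTTCC, a form of the binding motif of NF-kB, the transcription factor that drives inflammatory genes. Each line gives the 120 bases before the annotated start, from RefSeq on GRCm38.p6, plus strand, 5′ to 3′, with the motif in capitals.
Cxcl1 (chr5:90891125-90891244): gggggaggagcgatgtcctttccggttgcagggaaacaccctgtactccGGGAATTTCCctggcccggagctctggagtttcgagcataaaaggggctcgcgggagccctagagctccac
Cxcl2 (chr5:90903779-90903898): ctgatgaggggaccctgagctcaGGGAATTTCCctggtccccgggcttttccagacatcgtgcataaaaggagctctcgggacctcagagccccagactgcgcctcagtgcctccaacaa
Il6 (chr5:30012994-30013113): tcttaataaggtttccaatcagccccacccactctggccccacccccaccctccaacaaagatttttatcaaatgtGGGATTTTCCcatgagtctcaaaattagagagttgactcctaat
The motif began 71 bases before the start in Cxcl1, 97 in Cxcl2 and 44 in Il6. Both strands were searched, over 250 bases before to 50 after each start, and 22 of the 30 genes matched a promoter entry. Of those 22, 3 (13.6%) held the motif, against 9 of 446 tested panel genes (2.02%) and 0.466% of 27025 genes in all. The 3 genes are among those 9, no other motif was searched, and the shares were not tested against each other. Such a match describes letters and shows no binding, and a role of NF-kB was not tested.

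Of 9 tested chemokines 2 rose, with a median of 1.17, and 7 of the 9 differences were above 0, near the 77.9% of all genes. With the other scalings the median was 0.68 to 0.93, with 6 to 7 of 9 above 0 and 1 to 2 called. Of 9 tested inflammatory cytokines and their regulators 2 rose, with a median of 1.05. Over the other scalings it was 0.74 to 0.82, with 8 of 9 above 0 and 1 called. Ccl2, Tnf and Il33, named after their values were seen, did not pass: Ccl2 differed by 2.33 ± 0.75 (SE, adjusted p = 0.0836), Tnf by 1.05 ± 0.34 (SE, adjusted p = 0.0836) and Il33 by 2.09 ± 0.61 (SE, adjusted p = 0.0657). In the Toll-like receptor and NF-kB list all 15 tested members had a difference above 0, against 77.9% of all genes, with a median of 0.73, and Cd14 alone passed. Under the other scalings that median was 0.27 to 0.53, with 12 to 13 of 15 above 0 and 0 called. The NF-kB subunits Nfkb1 and Rela, also named after their values were seen, differed by 0.86 ± 0.25 (SE, adjusted p = 0.0657) and 0.81 ± 0.23 (SE, adjusted p = 0.0657). Fpr1, a receptor for bacterial formyl peptides on neutrophils and monocytes, measured 4.36, 3.79 and 4.66 in the low-fat samples and 6.74, 6.37 and 6.24 in the high-fat samples and rose by 2.18 ± 0.45 (SE, adjusted p = 0.0172). Fpr1 was the 1 of 5 tested neutrophil markers that passed, and that list summed to 475 to 840 on the low-fat and 767 to 800 on the high-fat diet, which overlap. The median of the neutrophil list was 0.29, and under the other scalings -0.09 to 0.10, with 2 to 4 of 5 above 0 and 1 called.

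Fabp4, Lpl, Pparg, Apoc2 and Lrp1, all of lipid handling, rose. Fabp4, a carrier of fatty acids in fat cells and macrophages, measured 7.52, 7.57 and 6.24 in the low-fat samples and 10.22, 9.51 and 9.85 in the high-fat samples, a 6.71-fold rise and a log2 difference of 2.75 ± 0.43 (SE, adjusted p = 0.0049). Lpl, the lipase that frees fatty acids from lipoproteins, measured 3.90, 4.13 and 4.17 in the low-fat samples and 6.25, 5.99 and 6.84 in the high-fat samples and rose by 2.29 ± 0.53 (SE, adjusted p = 0.0221). Pparg, a nuclear receptor for fatty acid derivatives that regulates both genes, measured 5.49, 4.83 and 5.85 in the low-fat samples and 7.63, 7.04 and 7.28 in the high-fat samples and rose by 1.93 ± 0.41 (SE, adjusted p = 0.018). None of the 3 genes had overlapping diets, and the Lpl values rested on low levels in the low-fat samples, with counts of 24, 24 and 5. Apoc2, the apolipoprotein that activates lipoprotein lipase, measured 7.01, 6.17 and 7.49 in the low-fat samples and 9.04, 8.48 and 8.65 in the high-fat samples and rose by 1.83 ± 0.41 (SE, adjusted p = 0.0196). Lrp1, an endocytic receptor that takes up apolipoprotein E-bearing particles, measured 7.58, 7.71 and 8.31 in the low-fat samples and 9.44, 9.67 and 9.86 in the high-fat samples and rose by 1.79 ± 0.32 (SE, adjusted p = 0.00951). Both were separated by diet in all 6 samples. Cd36, a scavenger receptor and fatty acid transporter, measured 7.35, 6.81 and 7.40 in the low-fat samples and 9.10, 8.25 and 8.74 in the high-fat samples, with no overlap, and its difference of 1.51 ± 0.45 (SE, adjusted p = 0.0657) did not pass. Of 11 tested genes of fatty acid uptake and oxidation 3 rose (Fabp4, Lpl and Pparg). All 11 differences were above 0, against 77.9% of all tested genes, and the median was 0.63. Under the other scalings it was 0.18 to 0.49, with 7 to 8 of 11 above 0 and 2 to 3 called.

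Those 3 genes are also the fat cell markers that rose, out of 5 tested, and the 8 measured fat cell markers summed to 364 to 459 on the low-fat and 1268 to 2054 on the high-fat diet. Fabp4 and Cd36 had the highest values of the 8 in every sample and made up most of that sum. The median difference of the tested ones was 1.93, and under the other scalings 1.51 to 1.73, with 5 of 5 above 0 and 2 to 3 called. In 2 of the 5 every low-fat value lay under the filter's 20, so their sign is no support for a direction. Adipoq, which encodes the hormone adiponectin and is restricted to fat cells, measured 4.07, 4.13 and 1.85 in the low-fat samples and 3.94, 4.02 and 5.05 in the high-fat samples, with overlapping diets and a difference of 0.99 ± 0.64 (SE, adjusted p = 0.398). Its low-fat counts were 27, 24 and 1 and its high-fat counts 16, 11 and 50. The fat cell genes Lep, Plin4 and Retn did not pass the filter in level. Lep, which encodes leptin, measured 2.49, 1.13 and 2.85 in the low-fat samples and 1.94, 1.56 and 2.58 in the high-fat samples. Plin4, a coat protein of lipid droplets, measured 4.02, 3.86 and 4.66 in the low-fat samples and 3.27, 3.56 and 3.87 in the high-fat samples, and both genes overlapped between diets and lay near the floor of the table. Retn, which encodes resistin, measured 3.84, 2.71 and 2.85 in the low-fat samples and 3.64, 3.14 and 2.22 in the high-fat samples, also with overlap. The part of fat cell RNA in the rise of the lipid genes was not tested beyond these values. Lipid synthesis and sterol genes gave 0 calls of 8, with a median of 0.24 that ran from -0.18 to 0.04 under the other scalings. Nr1h3, the liver X receptor alpha, differed by 0.85 ± 0.36 (SE, adjusted p = 0.184) and its target Abca1, a cholesterol exporter, by 0.68 ± 0.31 (SE, adjusted p = 0.223).

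Of the matrix genes Fn1, Col3a1 and Col4a2 rose, with the inhibitor Timp1 and the adhesion genes Itga5 and Tln1, and Col3a1, Col4a2 and Timp1 did so from low counts. Fn1, which encodes fibronectin, measured 7.50, 8.19 and 9.28 in the low-fat samples and 10.78, 10.82 and 11.26 in the high-fat samples and rose by 2.63 ± 0.54 (SE, adjusted p = 0.0172). Low-fat replicate 3 was the highest low-fat sample for Fn1 and still lay below the lowest high-fat sample. Col3a1, a chain of a fibrillar collagen, measured 3.64, 3.79 and 4.17 in the low-fat samples and 6.39, 6.26 and 7.24 in the high-fat samples and rose by 2.76 ± 0.58 (SE, adjusted p = 0.0172). Col4a2, a chain of the basement membrane collagen, measured 3.41, 2.54 and 2.85 in the low-fat samples and 5.67, 5.73 and 6.37 in the high-fat samples and rose by 2.99 ± 0.40 (SE, adjusted p = 0.00209). The low-fat counts behind these were 20, 19 and 5 for Col3a1 and 17, 8 and 2 for Col4a2, so their fold changes carry a wide counting error. Timp1, an inhibitor of matrix metalloproteases, measured 3.49, 3.86 and 1.85 in the low-fat samples and 6.47, 5.65 and 6.08 in the high-fat samples and rose by 3.00 ± 0.66 (SE, adjusted p = 0.0196). Its low-fat counts were 18, 20 and 1, and without low-fat replicate 3 the difference was 2.39 (adjusted p = 0.0526), no longer past the threshold and below those of Fn1, Col4a2 and Cxcl2. Itga5, the fibronectin-binding integrin chain, measured 7.74, 7.94 and 7.37 in the low-fat samples and 9.38, 8.53 and 9.80 in the high-fat samples and rose by 1.56 ± 0.35 (SE, adjusted p = 0.0209). Tln1, which encodes talin and links integrins to actin, measured 10.13, 9.80 and 9.63 in the low-fat samples and 10.58, 10.73 and 10.84 in the high-fat samples and rose by 0.86 ± 0.22 (SE, adjusted p = 0.0412). Itga5 and Tln1 were well above the floor in all 6 samples.

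By group, 1 of 5 tested fibrillar collagens, 1 of 6 basement membrane genes and 1 of 10 matrix glycoproteins and crosslinking enzymes rose, and all 21 differences were above 0. In 11 of the 21 every low-fat value lay under the filter's 20, so that the filter could pass them only through high-fat or CD34+ samples, and their sign is no support for a direction. The 3 list medians were 1.63, 0.91 and 1.40, in that order, against 0.35 for all genes. Under the other scalings the fibrillar collagen median was 1.10 to 1.45, with 5 of 5 above 0 and 0 to 1 called. The basement membrane median was 0.27 to 0.60, with 5 to 6 of 6 above 0 and 1 called, and that of the glycoproteins and enzymes 0.94 to 1.09, with 8 to 10 of 10 above 0 and 0 to 1 called. Col1a1, the main fibrillar collagen, measured 3.41, 3.35 and 4.43 in the low-fat samples and 3.64, 4.37 and 4.96 in the high-fat samples, with overlapping diets and a difference of 0.59 ± 0.89 (SE, adjusted p = 0.777). Col5a1, named after its values were seen, differed by 2.09 ± 0.57 (SE, adjusted p = 0.054). Of 13 metalloproteases and inhibitors 1 rose, which was the inhibitor Timp1, against 5.05% of all tested genes, and the median was 0.69. The other scalings put it at 0.24 to 0.42, with 8 to 10 of 13 above 0 and 0 called. The 9 tested genes of transforming growth factor beta signalling gave 0 calls and 9 differences above 0, against 77.9% of all tested genes above 0. Their median was 0.32, which under the other scalings was -0.12 to 0.19, with 4 to 8 of 9 above 0 and 0 called. Tgfb1, the main ligand of that signalling in leukocytes, measured 10.65, 10.55 and 10.78 in the low-fat samples and 11.45, 11.44 and 11.47 in the high-fat samples, with no overlap, and its difference of 0.79 ± 0.23 (SE, adjusted p = 0.0657) did not pass. The summed markers of other matrix-making cells were higher on the high-fat diet as well. Of 8 tested fibroblast markers 1 rose (Col3a1) and all 8 differences were above 0, 4 of them in genes whose low-fat values all lay under the filter's 20. The median was 1.49, and under the other scalings 0.78 to 1.23, with 7 to 8 of 8 above 0 and 0 to 1 called. The 10 measured ones summed to 94 to 158 on the low-fat and 273 to 436 on the high-fat diet. Among fibroblast markers below the filter, Pdgfrb measured -0.68, 2.71 and 3.85 in the low-fat samples and 3.53, 3.88 and 3.73 in the high-fat samples. Fap measured 3.23, 3.00 and 2.85 in the low-fat samples and 2.75, 0.56 and 3.99 in the high-fat samples, and both overlapped between diets. Of 4 tested endothelial markers 1 rose (Flt1), and the 5 measured ones summed to 168 to 281 on the low-fat and 440 to 581 on the high-fat diet. Whether such cells contributed to the matrix values was not tested.

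Csf1r, Cd14, Cd163, Fcgr4 and complement C3 rose, and of these Cd14, Cd163 and C3 lost their calls under each of the other scalings. Csf1r, the receptor for the macrophage growth factor CSF1, measured 9.77, 9.80 and 9.97 in the low-fat samples and 11.56, 11.05 and 11.21 in the high-fat samples and rose by 1.43 ± 0.28 (SE, adjusted p = 0.0119). Cd14, the co-receptor that hands bacterial lipopolysaccharide to Toll-like receptor 4, measured 9.23, 9.56 and 8.80 in the low-fat samples and 10.73, 10.20 and 11.79 in the high-fat samples and rose by 1.71 ± 0.39 (SE, adjusted p = 0.0209). Cd163, the scavenger receptor for haemoglobin bound to haptoglobin, measured 3.71, 3.63 and 4.17 in the low-fat samples and 5.44, 5.42 and 5.32 in the high-fat samples and rose by 1.55 ± 0.39 (SE, adjusted p = 0.0337). In all 3 the diets did not overlap. Fcgr4, an activating receptor for IgG, measured 7.36, 6.60 and 7.68 in the low-fat samples and 9.66, 8.85 and 8.56 in the high-fat samples and rose by 1.81 ± 0.35 (SE, adjusted p = 0.0119). C3, the central complement component, measured 7.40, 7.46 and 6.55 in the low-fat samples and 8.76, 8.41 and 8.90 in the high-fat samples and rose by 1.56 ± 0.40 (SE, adjusted p = 0.0377), as 1 of 4 tested complement genes. Their median was 1.38 and under the other scalings 0.94 to 1.12, with 4 of 4 above 0 and 0 called. In 2 of the 4 every low-fat value lay under the filter's 20, so their sign is no support for a direction. Of the 6 tested macrophage and monocyte markers 3 rose (Cd14, Csf1r and Cd163), and 4 of the 6 differences were above 0. Cd68, a lysosomal membrane protein of macrophages, differed by 0.79 ± 0.28 (SE, adjusted p = 0.104), Ccr2, the receptor that draws monocytes from blood, by -0.25 ± 0.41 (SE, adjusted p = 0.811) and Cd84, an adhesion receptor of many leukocytes, by -0.06 ± 0.47 (SE, adjusted p = 0.967). The list's median was 1.11, and under the other scalings 0.64 to 0.85, with 4 of 6 above 0 and 1 called.

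The cell surface and cytokine genes of alternative activation gave 2 calls of 3 tested, Cd163 and Il10, with a median of 1.55. The other scalings gave 0.94 to 1.25, with 3 of 3 above 0 and 0 called. In 2 of the 3 every low-fat value lay under the filter's 20, so their sign is no support for a direction. None of 7 lysosomal genes passed, all 7 differences were above 0, against 77.9% of all tested genes, and the median was 0.79. With the other scalings it was 0.34 to 0.53, with 6 to 7 of 7 above 0 and 0 called. Lgmn, an asparagine-cutting protease, measured 9.65, 9.79 and 8.24 in the low-fat samples and 11.09, 10.19 and 10.90 in the high-fat samples, a difference of 1.50 ± 0.42 (SE, adjusted p = 0.054). The cathepsin Ctsb measured 10.14, 9.99 and 10.51 in the low-fat samples and 11.02, 11.04 and 11.04 in the high-fat samples, a difference of 0.82 ± 0.26 (SE, adjusted p = 0.0781). Neither gene overlapped between diets. Among genes of oxidative stress 2 of 9 rose, with a list median of 0.29 that under the other scalings was -0.09 to 0.01, with 4 to 5 of 9 above 0 and 1 called. Hmox1, the haem-degrading enzyme induced by oxidative stress, measured 6.44, 6.07 and 6.71 in the low-fat samples and 9.24, 8.22 and 9.73 in the high-fat samples and rose by 2.66 ± 0.43 (SE, adjusted p = 0.0049). Cybb, the catalytic subunit of the phagocyte NADPH oxidase, measured 10.37, 10.16 and 10.86 in the low-fat samples and 11.61, 11.47 and 11.49 in the high-fat samples and rose by 1.06 ± 0.28 (SE, adjusted p = 0.0495). The high-fat samples of Hmox1 spread over more than 1 log2 unit and those of Cybb over far less, both clear of the low-fat samples.

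Growth factor, vascular and signalling genes made up the rest of the 30. Igf1, a growth factor that macrophages secrete in tissue repair, measured 3.13, 1.54 and 2.85 in the low-fat samples and 4.99, 4.47 and 5.93 in the high-fat samples and rose by 2.62 ± 0.61 (SE, adjusted p = 0.0221), from low-fat counts of 14, 4 and 2. Flt1, a receptor for vascular endothelial growth factor on endothelial cells and monocytes, measured 5.99, 5.35 and 5.17 in the low-fat samples and 7.12, 6.90 and 7.17 in the high-fat samples and rose by 1.56 ± 0.37 (SE, adjusted p = 0.0267). The endothelial markers Cdh5, Tek and Pecam1, named after their values were seen, differed by 1.52 ± 0.50 (SE, adjusted p = 0.0887), 2.01 ± 0.63 (SE, adjusted p = 0.0762) and 0.97 ± 0.33 (SE, adjusted p = 0.101). In each of the 4 tested endothelial markers all high-fat samples lay above the low-fat ones, against 28.3% of all tested genes, and 1 passed. Their median was 1.54, and under the other scalings 1.08 to 1.25, with 4 of 4 above 0 and 0 called. In 1 of the 4 every low-fat value lay under the filter's 20, so it entered through other samples. Epas1, a hypoxia-inducible factor that is abundant in endothelial cells and macrophages, measured 5.53, 5.38 and 5.55 in the low-fat samples and 6.90, 6.73 and 7.37 in the high-fat samples and rose by 1.52 ± 0.39 (SE, adjusted p = 0.0413). Pik3r5, a regulatory subunit of phosphoinositide 3-kinase gamma in leukocytes, measured 5.96, 6.28 and 5.55 in the low-fat samples and 7.16, 7.33 and 8.10 in the high-fat samples and rose by 1.60 ± 0.37 (SE, adjusted p = 0.0225). Gab1, a docking protein downstream of growth factor receptors, measured 5.30, 5.30 and 5.85 in the low-fat samples and 6.999, 6.60 and 7.32 in the high-fat samples and rose by 1.49 ± 0.32 (SE, adjusted p = 0.018). All 3 rose without overlap between diets. Rapgef2, an exchange factor for the GTPase Rap1, measured 6.93, 6.68 and 6.76 in the low-fat samples and 8.44, 7.73 and 8.32 in the high-fat samples and rose by 1.38 ± 0.37 (SE, adjusted p = 0.0495). App, the amyloid precursor protein, measured 9.16, 8.97 and 8.96 in the low-fat samples and 9.65, 9.85 and 10.43 in the high-fat samples and rose by 0.94 ± 0.25 (SE, adjusted p = 0.0495). Rapgef2, App and Cybb had adjusted p values next to the threshold. Igf1 and Flt1 were the 2 calls among 6 tested growth factors and their receptors, with a median of 0.76. Over the other scalings it was 0.26 to 0.44, with 4 to 5 of 6 above 0 and 0 to 1 called. Pik3r5 was the 1 call among 18 genes of the MAPK and phosphoinositide 3-kinase pathways, near the 5.05% called of all tested genes. The median of these 18 was 0.24 and under the other scalings -0.19 to -0.03, with 6 to 8 of 18 above 0 and 0 called. Fcgr4, Lrp1, Itga5, Epas1, Gab1, Rapgef2, App and Tln1 lay outside the rule for named genes and were added after their values were seen, so that all 30 are given.

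Lymphocyte, antigen presentation and energy genes gave no calls in the deposited scaling. Of 22 tested T and NK cell markers 10 had a difference above 0, and the median was -0.07, which was 0.44 without low-fat replicate 3, where 1 gene passed, and -0.53 to -0.23 under the other scalings. Klrd1, the CD94 chain of NK cell receptors, measured 9.29, 8.51 and 9.70 in the low-fat samples and 8.60, 8.65 and 8.13 in the high-fat samples and differed by -0.70 ± 0.31 (SE, adjusted p = 0.201). Il2ra, the alpha chain of the interleukin 2 receptor, differed by 0.77 ± 0.40 (SE, adjusted p = 0.291). The 5 B cell markers had a median of -0.51, and -0.87 to -0.83 under the other scalings, with Ms4a1, which encodes CD20, at 8.47, 7.68 and 8.63 in the low-fat samples and 7.16, 8.62 and 5.88 in the high-fat samples, a difference of -1.04 ± 0.66 (SE, adjusted p = 0.395). The transcription factor Spib differed by -0.57 ± 0.46 (SE, adjusted p = 0.528). The Ms4a1 values of the diets overlapped. The 3 dendritic cell markers all lay below 0, with a median of -0.39, and -0.74 to -0.71 under the other scalings. Ccr7, the receptor that guides dendritic cells and lymphocytes to lymph nodes, measured 10.63, 10.69 and 10.66 in the low-fat samples and 10.26, 10.27 and 10.27 in the high-fat samples, with no overlap and a difference of -0.39 ± 0.22 (SE, adjusted p = 0.318). The transcription factor Irf8 differed by -0.39 ± 0.30 (SE, adjusted p = 0.499). The low-fat samples of Ccr7 lay within 0.1 log2 units of each other, as did the high-fat samples. The 3 tested mast cell markers had a median of 0.99, and 0.19 to 0.71 under the other scalings, with the histidine decarboxylase gene Hdc at 1.04 ± 0.55 (SE, adjusted p = 0.301) and the tryptase Tpsb2 at 0.99 ± 1.33 (SE, adjusted p = 0.746).

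The 8 MHC class II genes had a median of -0.15, and -0.46 to -0.44 under the other scalings, with 2 above 0 in the deposited scaling, and those with the smallest p, H2-Ob and H2-DMb2, differed by -0.63 ± 0.31 (SE, adjusted p = 0.256) and -0.55 ± 0.29 (SE, adjusted p = 0.302). The 5 tested MHC class I genes had a median of 0.03, which was -0.39 to -0.29 under the other scalings, with H2-K1 at 0.72 ± 0.32 (SE, adjusted p = 0.205) and H2-D1 at 0.51 ± 0.24 (SE, adjusted p = 0.223). The 7 chemokine receptors had a median of -0.25, which was 0.31 without low-fat replicate 3 and -0.72 to -0.46 under the other scalings, and Ccr1, a receptor of inflammatory monocytes, differed by 0.48 ± 0.36 (SE, adjusted p = 0.486). The 13 interferon response genes had a median of 0.14, which ran from -0.23 to -0.17 under the other scalings. Within that list Oasl1, an interferon-induced inhibitor of translation, measured 3.49, 3.24 and 3.85 in the low-fat samples and 6.54, 5.51 and 7.63 in the high-fat samples, with no overlap, and its difference of 3.04 ± 0.84 (SE, adjusted p = 0.054) did not pass. Every low-fat value of Oasl1 lay under the filter's minimum, so it entered through other samples and its sign is no support for a direction. Cxcl10, an interferon-induced chemokine, measured 8.14, 7.41 and 8.58 in the low-fat samples and 9.59, 8.80 and 9.42 in the high-fat samples and differed by 1.23 ± 0.47 (SE, adjusted p = 0.132). The 7 respiratory chain genes had a median of 0.02 and ran from -0.38 to -0.28 under the other scalings, with Cox6a1 at 0.19 ± 0.21 (SE, adjusted p = 0.682) and Uqcrfs1 at -0.12 ± 0.23 (SE, adjusted p = 0.839). The 5 cell cycle genes had a median of 0.15 and ran from -0.21 to -0.17 under the other scalings. Mki67, a marker of dividing cells, measured 8.17, 8.25 and 5.43 in the low-fat samples and 8.84, 8.99 and 9.14 in the high-fat samples, with low-fat replicate 3 far below the rest, and differed by 1.70 ± 0.61 (SE, adjusted p = 0.113). The cell cycle inhibitor Cdkn1a differed by 0.78 ± 0.34 (SE, adjusted p = 0.199). The 12 genes of cytokine signalling through JAK and STAT proteins had a median of 0.41, which was 0.02 to 0.16 under the other scalings and 0.65 without low-fat replicate 3. Stat3, the factor downstream of the Il6 and Il10 products, measured 9.88, 9.25 and 9.62 in the low-fat samples and 10.68, 10.50 and 10.49 in the high-fat samples, with no overlap, and differed by 0.97 ± 0.27 (SE, adjusted p = 0.0543). The kinase Jak2 differed by 0.58 ± 0.23 (SE, adjusted p = 0.166).

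**Figure D4:**
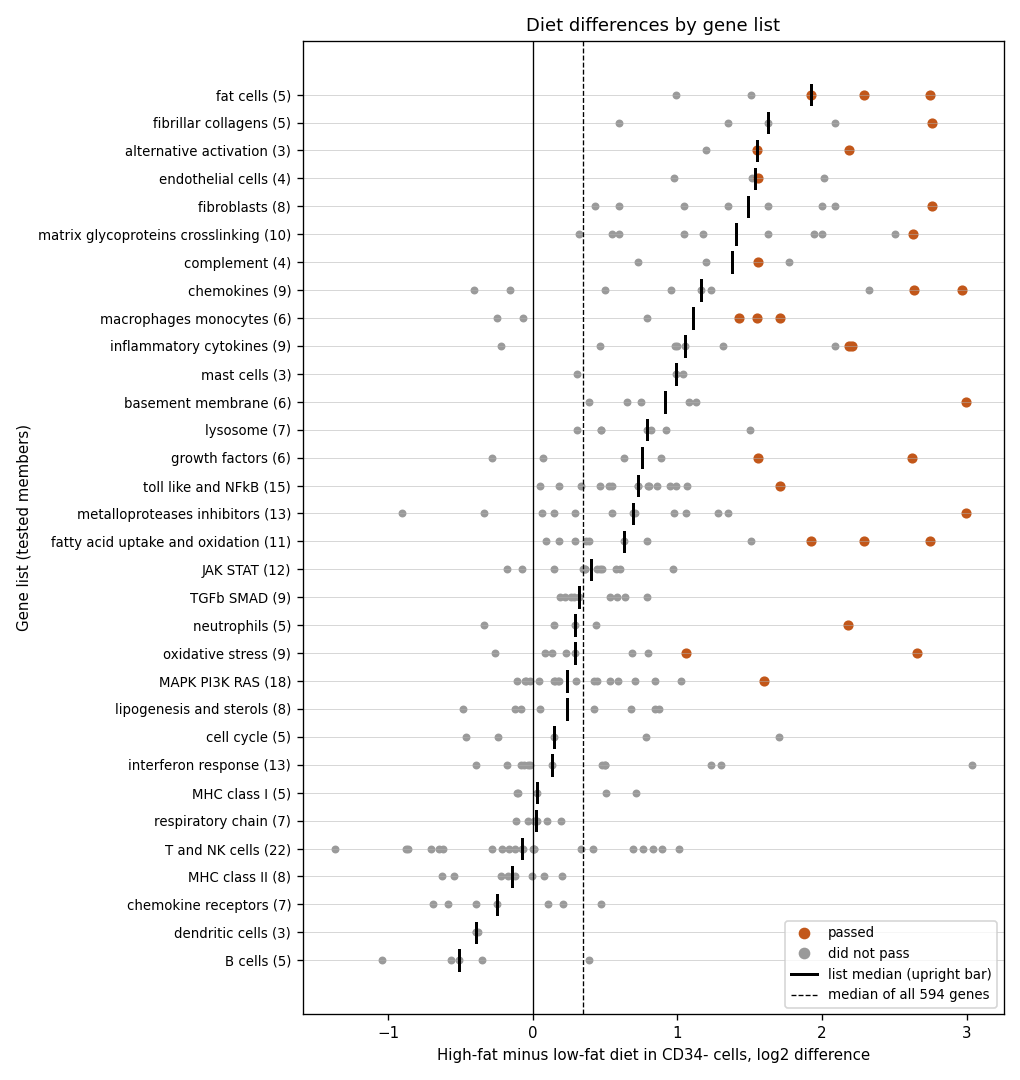
High-fat minus low-fat log2 difference of the tested members of the gene lists, with orange points for genes that passed and a bar at each list's median. A gene in several lists appears in each. Genes in no list, among them 9 of the 30 that rose, and the progenitor list, with 2 tested members, are not drawn. The fat cell list has the highest median among the cell type lists, at 1.93, and the B cell list the lowest, at -0.51; the dashed line marks the median of all tested genes at 0.35.

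The same diets were compared in the CD34+ cells, and both populations came from glands of the same diet groups, so the values are given side by side. There 10 genes (1.68%) were higher and 4 (0.673%) lower on the high-fat diet. All 30 genes had a difference above 0 in CD34+ cells too, with a median of 1.45, against -0.01 over all tested genes there. Of the 30, 9 passed there: Timp1, Col4a2, Cxcl1, Fabp4, Hmox1, Cxcl2, Il6, Il10 and Cd14. For 19 of the 30 the diets did not overlap in CD34+ cells. The share over all tested genes was not computed there, so no excess can be read from this count. For 28 of the 30 the difference was greater in the CD34- cells in which they were called. Cxcl1 differed by 2.97 in CD34- and 2.11 in CD34+ cells, Fabp4 by 2.75 and 1.89, and Hmox1 by 2.66 and 2.02. Col3a1 differed by 2.76 and 1.60, Csf1r by 1.43 and 0.83, and Cd163 by 1.55 and 0.05.

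The difference between the populations was itself tested, as the CD34- minus the CD34+ diet difference, and 0 of 594 genes passed in limma, with 52 (8.75%) at an unadjusted p under 0.05. Of the 30 genes, 4 were among those 52: Cd163, Flt1, Epas1 and Fcgr4. For Cd163 the diet difference was greater in CD34- cells by 1.51 ± 0.55 (SE, adjusted p = 0.546) and for Flt1 by 1.26 ± 0.53 (SE, adjusted p = 0.546). The smallest p values belonged to genes outside the 30. Il21r, the receptor for interleukin 21, differed by 0.15 in CD34- and -2.05 in CD34+ cells, an interaction of 2.19 ± 0.52 (SE, adjusted p = 0.267). Nrp2, a co-receptor for semaphorins and vascular growth factors, differed by 0.63 and -0.78, an interaction of 1.41 ± 0.33 (SE, adjusted p = 0.267). Ikbkb, the kinase that releases NF-kB, differed by 0.53 and -0.82, an interaction of 1.35 ± 0.34 (SE, adjusted p = 0.334). For all 3 the difference was above 0 in CD34- and below 0 in CD34+ cells, and so it was for Ptger4, a prostaglandin E2 receptor, at 1.30 ± 0.35 (SE, adjusted p = 0.349). With the replicate number of a diet taken as the mouse and fitted as a random block, 7 genes passed, among them Il21r, Nrp2, Ikbkb and Ptger4, and with centring again on top 0 did.

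**Figure D5:**
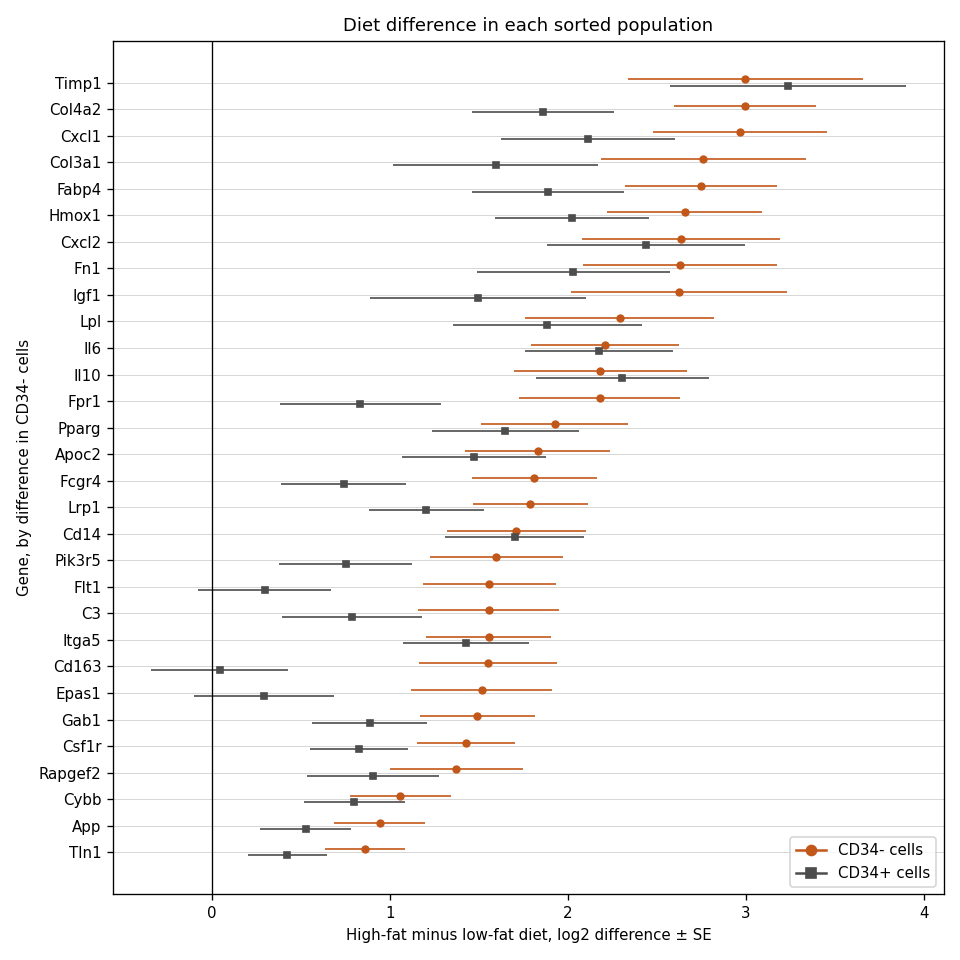
High-fat minus low-fat log2 difference ± SE of the 30 genes that rose in CD34- cells, in CD34- cells (orange circles) and in CD34+ cells (grey squares). All 30 lie above 0 in both populations, and for 28 of them the CD34- point lies to the right; the genes were chosen on the CD34- values.

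The authors' deposited table for CD34- cells holds 117 genes in 2 clusters, 115 of them in cluster 1 and 2, Ncr1 and Klrd1, in cluster 2. All 30 genes that rose here are in cluster 1 of the authors' deposited table, which makes 100% of the calls and 25.6% of the genes in that table. All 115 genes of cluster 1 in the authors' deposited table had a difference above 0 here, and in 109 of them the diets did not overlap. Of all tested genes 28.3% were higher without overlap. Of the 116 genes of the authors' deposited table that were tested here, 103 reached an unadjusted p under 0.05. The values in the authors' deposited table were those of the main table centred per gene, within 0.0001, and no source used here states how its genes were chosen. It draws on the same samples, so its overlap with the results here is no independent support. Both genes of cluster 2 of the authors' deposited table mark NK cells. Ncr1, the activating receptor NKp46, measured 7.59, 5.81 and 9.68 in the low-fat samples and 6.45, 6.51 and 6.01 in the high-fat samples and differed by -1.37 ± 0.81 (SE, adjusted p = 0.369). Low-fat replicate 3 was the highest sample for Ncr1, and the diets overlapped.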

How the data were processed

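RNA of 12 sorted samples (2 diets by 2 populations, 3 per group) was measured. The deposited series matrix holds log2 values, which per the labels come from the nCounter Fibrosis V2 panel with low-input amplification; no source used here names the normalization the authors applied. Each sample's deposited log2 values equal the log2 of whole counts plus a constant: every value under 300 counts lay within 0.1 of a whole number once the lowest was set to 1. The authors' deposited cluster table, whose cluster number is a label and not a measurement, was used only for overlap. Per the labels, groups came from sample titles, which number 3 replicates a group. The series design gives 3 mice a group, but no label says that each replicate is 1 mouse, so SEs and p-values measure the spread between these samples. The deposited log2 values were fitted with limma 3.58.1 in R 4.3.3 (4 group means, all 12 samples, mean-variance trend), over the 594 genes that reached a linear value of 20 in 3 or more samples, with Benjamini-Hochberg adjustment and a call at an adjusted p under 0.05. Where a sentence gives a ± value beside a difference, it is limma's SE with n = 3 per diet, and no pseudocount was added. Total counts of 78316 to 535463 set the precision, and no gene-level interval was computed. Named genes were the 15 greatest calls in each direction, up to 5 called members of each list (or the 2 smallest p where none was called), the 5 smallest interaction p and the sort markers; a gene that this rule names is not reported here. The members and the gene lists were chosen with earlier results of these data known. Replicate numbers are shared between diets, but same-numbered samples did not deviate together (correlations 0.174, -0.172 and -0.0829), so diets were not paired. Within a diet, same-numbered CD34- and CD34+ samples correlated at 0.307, 0.311 and 0.434 on the low-fat and 0.351, 0.409 and 0.43 on the high-fat diet. The script was tested on simulated data with known differences. Alternatives changed scaling, filter, variance model, blocks and samples.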

Additional observations from a re-analysis of the deposited data

How the results depend on the processing

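All 30 genes kept a difference above 0 under each alternative that tested them, but the number of calls moved. Against 30 higher and 0 lower, centring each sample again gave 17, quantile normalization 12 higher and 1 lower (Klrd1), voom on recovered counts 11, a floor of 20 in all 6 CD34- samples 19, and a plain two-sample test without moderation 1 higher and 1 lower (Ccr7). In that plain test 0 of the 30 passed, so its higher call lay outside them. Array quality weights gave 208 higher and 2 lower (Eef2k and Klrd1), from a weight estimate that stopped before it converged. Leaving out 1 sample gave 4 to 31. The replicate block, a number that joins different mice, gave 34 higher, of which 23 were among the 30; no paired value is given beside single results because the numbers do not pair the diets. The remaining settings (fit on 6 samples, no filter, a floor of 50, no trend, robust variance, mouse as a random block) gave 26 to 44. Of alternatives chosen after seeing the data, centring again with the mouse block gave 17 and centring again without low-fat replicate 3 gave 9. The interaction count of 0 became 2 with array weights and 7 with the mouse block. The causes of these shifts were not tested. Depth limits the low genes most: 15 of the 30 had more than 20 counts in all 6 samples, and Timp1, Col4a2 and Igf1 had a low-fat sample at 3 counts or fewer.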

Other observations

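Just past the threshold lay 38 further genes with an adjusted p from 0.05 to under 0.1, all higher on the high-fat diet and none with overlapping diets. Of all tested genes 28.3% were higher without overlap, and these 38 were picked by p, so their lack of overlap adds no support. Several of the 38 act on matrix or vessels, and they are named here after their values were seen: Mmp14, a membrane-bound metalloprotease, differed by 1.35 ± 0.40 (SE, adjusted p = 0.0657). Ctgf, a matrix-associated growth regulator, differed by 1.95 ± 0.61 (SE, adjusted p = 0.0762), and Thbs1, which encodes thrombospondin 1 and can activate latent transforming growth factor beta, by 1.18 ± 0.37 (SE, adjusted p = 0.0762). Serpinh1, the collagen chaperone of the endoplasmic reticulum, measured 4.27, 3.63 and 3.43 in the low-fat samples and 4.99, 5.81 and 5.43 in the high-fat samples and differed by 1.63 ± 0.54 (SE, adjusted p = 0.0887). Nos3, the endothelial nitric oxide synthase, measured 3.41, 3.45 and 1.85 in the low-fat samples and 5.15, 4.14 and 4.77 in the high-fat samples and differed by 1.79 ± 0.53 (SE, adjusted p = 0.0657). Serping1, the inhibitor of complement C1, measured 3.32, 4.002 and 3.85 in the low-fat samples and 5.56, 5.26 and 5.68 in the high-fat samples and differed by 1.77 ± 0.55 (SE, adjusted p = 0.0762). None of these genes passed the adjusted threshold. Every low-fat value of Serpinh1, Nos3 and Serping1 lay under the filter's minimum, so these genes entered through other samples. Their sign is no support for a direction, and Nos3 rested on 1 count in low-fat replicate 3.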
